A study of Homo sapiens with 13 samples.

Results

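The RNA of TE-7 cells 6 hr after interleukin-13 (IL-13) was set against that of control cells at the same time. TE-7 is 1 established human cell line, labelled esophageal epithelial and grown in RPMI medium with fetal calf serum. The IL-13 group is 1 RNA-seq library from cells given IL-13 at 100 ng/ml for 6 hr, and the control group is 1 library labelled control 6 hr. With 1 library per group there is no replicate error, and the values below describe these 2 libraries without a test. Of 23637 genes in the deposited table, 11797 were compared: those with an RPKM (reads per kilobase of gene, scaled to the mapped reads of the library) of 1 or more in either library and a span of at least 300 bp. The log2 ratio is that of RPKM + 0.1, IL-13 over control, and a gene counts as higher or lower from a ratio of 2-fold. The same study holds libraries of 2 hr and 24 hr, and ChIP-seq of 3 histone marks at 6 hr. The 24 hr libraries and the ChIP-seq did not enter the choice of genes. The 2 hr control did in part, since it shares reads with the 6 hr control.

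IL-13 is a cytokine of type 2 immunity. On epithelial cells it binds a receptor of the IL-4 receptor alpha chain (IL4R) and IL13RA1, whose kinases JAK1, TYK2 and JAK2 phosphorylate STAT6, and STAT6 then enters the nucleus and binds DNA. In the esophagus, IL-13 is known as a driver of eosinophilic esophagitis, in which the epithelium makes the eosinophil attractant CCL26 (eotaxin-3) and loses part of its squamous differentiation.

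The low values of both 6 hr columns fell on steps of whole reads from 2 read sets each. They came to about 18300000 and 16400000 reads for IL-13, and to about 15700000 and 15300000 reads for control. An RPKM of 1 over 1 kb then rests on about 35 reads with IL-13 (95% Poisson interval 24.4 to 48.7) and 31 reads in control (21.1 to 44.0), which covers counting error only. A read set of the 6 hr control also stands in the 2 hr control, since 359 values were identical between them. The other 14 pairs of libraries had 0. Which time the shared reads come from is not given, so part of the 6 hr control may be of 2 hr. The part of time in the 6 hr ratios was not tested. The squamous epithelial markers were all compared, 9 of 9, led by KRT5, KRT6A and SFN. They summed to 3368 RPKM in the IL-13 library and 3619 RPKM in control. Among them are CDH1 and EPCAM, which are not particular to squamous epithelium. Of the columnar markers, 5 of 18 were compared (2131 RPKM with IL-13 and 2149 RPKM in control), which are the keratins KRT7, KRT8, KRT18 and KRT19 and the secreted protein AGR2. Markers of fibroblasts summed to 4.29 RPKM with IL-13 and 4.69 RPKM in control, and those of leukocytes to 2.31 RPKM and 3.63 RPKM in the same order, endothelium to 1.81 RPKM and 1.48 RPKM, and brain to 8.47 RPKM and 9.43 RPKM.

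The response at 6 hr was narrow and mostly upward. Of the 11797 genes compared, 64 were at least 2-fold higher with IL-13 (0.543%) and 13 at least 2-fold lower (0.110%), together 77 (0.653%). Within 1.5-fold lay 97.6%. In bulk RNA, fewer cells of a kind and less RNA per cell cannot be told apart. The median log2 ratio was 0.00 and the middle 98% of genes ran from −0.57 to 0.68. The limit was passed by 1.69% of genes upward and 0.645% downward at a mean level of 0.5 to 2 RPKM, where the log2 ratios had an SD of 0.40 across genes. At 20 to 100 RPKM the shares were 0.248% and 0.0310% with an SD of 0.17, and among 772 genes at or above 100 RPKM none passed. Of the 64 higher genes, 27 reached 10 RPKM with IL-13 and 20 were below 1 RPKM in control. Of the 13 lower genes, 12 were below 5 RPKM in control.

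**Figure D1:**
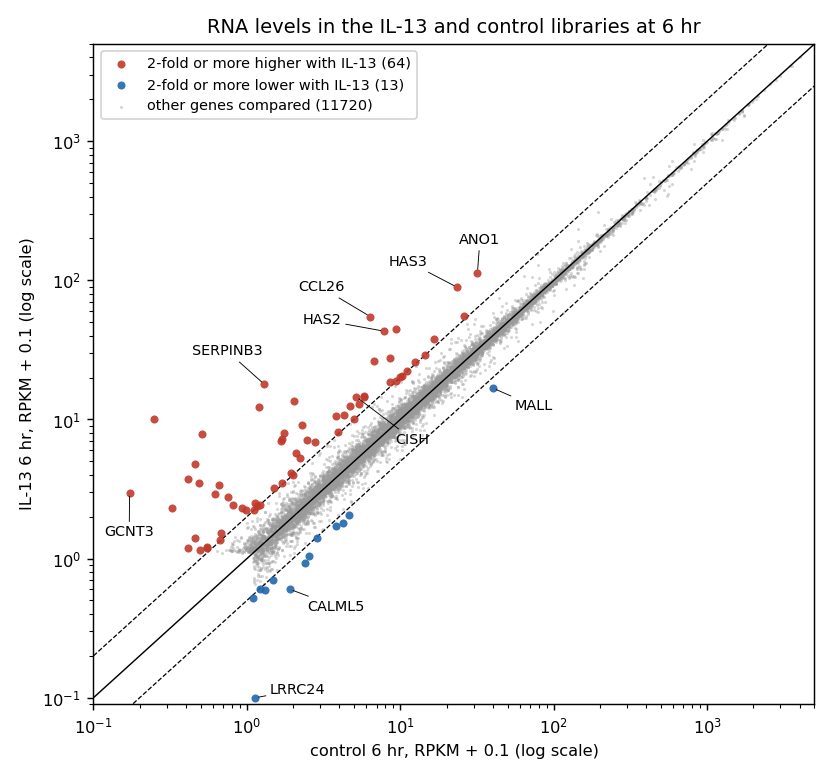
RNA level of each gene compared, as RPKM + 0.1 on log axes, with IL-13 on the vertical and control on the horizontal axis; the solid line marks equal levels and the dashed lines a 2-fold difference. The 64 genes higher with IL-13 lie above the cloud from under 1 to about 100 RPKM, while 12 of the 13 lower genes sit below 5 RPKM in control.

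The gene lists below were chosen with earlier results of these data known and are no independent evidence of direction. Their counts stand beside 0.543% higher and 0.110% lower over all genes compared. Receptor and signalling genes come first in the order of the pathway. None of the 13 genes compared from the list of IL-13 receptor chains, JAK kinases, STAT factors and adaptors passed the limit, and their median log2 ratio was −0.01. IL4R was at 26.4 RPKM with IL-13 and 29.3 RPKM in control. IL13RA1 had 17.6 RPKM with IL-13 and 18.0 RPKM in control, and STAT6 had 41.5 RPKM with IL-13 and 40.2 RPKM in control. These 3 levels differed by less than 1.5-fold. The decoy receptor IL13RA2 was too low to be compared, at 0.0398 RPKM with IL-13 and 0.0238 RPKM in control. IRS1 and IRS2, adaptors that link IL4R to PI3-kinase, had the lowest ratios of the list, with log2 ratios of −0.52 and −0.45, both under the limit.

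The feedback inhibitors of cytokine signalling split sharply. All 17 on the list were compared, 2 were higher, none was lower and the median log2 ratio was 0.09. Over all genes compared 0.543% were higher. SOCS1, which blocks JAK kinases, was at 6.87 RPKM with IL-13 and 1.57 RPKM in control, a 4.37-fold difference. CISH, a SOCS-family protein best known as a target of STAT5, was at 14.5 RPKM with IL-13 and 5.04 RPKM in control, a 2.87-fold difference. The other 15 had log2 ratios of at most 0.25, with SOCS3 at 7.58 RPKM with IL-13 and 7.19 RPKM in control and SOCS2 at 15.4 RPKM with IL-13 and 13.7 RPKM in control. The authors' deposited table gave adjusted p-values of 9.76e-07 for SOCS1 and 2.66e-09 for CISH. Both genes were already higher at 2 hr, where the log2 ratios were 2.19 for SOCS1 and 2.17 for CISH, with a control that shares reads with the 6 hr control. The CISH promoter is printed because it holds 4 copies of TTCNNNGAA, a spacing bound by several STAT factors, more than any other promoter among the higher genes. It is RefSeq sequence of GRCh38.p14, minus strand, chr3:50611725-50612024, from 250 bases before to 50 after the start, with the copies in capitals.
CISH: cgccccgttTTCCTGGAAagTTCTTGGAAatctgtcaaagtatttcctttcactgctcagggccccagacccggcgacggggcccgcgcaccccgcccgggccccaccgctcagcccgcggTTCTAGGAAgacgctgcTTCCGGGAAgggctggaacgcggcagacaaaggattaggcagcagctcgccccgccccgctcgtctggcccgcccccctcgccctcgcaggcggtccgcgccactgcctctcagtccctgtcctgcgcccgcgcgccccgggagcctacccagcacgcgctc

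Among 36 chemokines, 6 were compared, 2 were higher and none was lower, against 0.543% and 0.110% of all genes compared. CCL26, the ligand of CCR3 on eosinophils, stood at 54.8 RPKM with IL-13 and 6.27 RPKM in control. That is 8.75-fold in plain RPKM, and a log2 ratio of 3.11 with 0.1 added to each level. CCL26 lies on chromosome 7 at 75398842 to 75419064, minus strand, of hg19. In the authors' deposited table its adjusted p was 0.141, above 0.05. CXCL1 and CXCL2, neutrophil attractants that bind CXCR2, differed less: CXCL1 was at 74.7 RPKM with IL-13 and 43.6 RPKM in control, under the 2-fold limit, with an adjusted p of 0.00221 in the authors' deposited table. CXCL2 was at 2.15 RPKM with IL-13 and 0.885 RPKM in control. IL8 (9.11 RPKM with IL-13 and 7.15 RPKM in control), CXCL16 and CCL5 lay within 1.5-fold. Other eosinophil or Th2 attractants were barely detected, with CCL17 at 0.0444 RPKM with IL-13 and 0.0532 RPKM in control.

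Cytokines and growth factors leaned the other way without passing the limit. Of 26 compared, 7 had a log2 ratio above 0 and 19 below, the median was −0.26 against 0.00 over all genes compared, and none passed. The epidermal growth factor receptor ligand AREG was at 22.8 RPKM with IL-13 and 35.7 RPKM in control. IL18 was at 26.7 RPKM with IL-13 and 38.8 RPKM in control, and the IL-1 antagonist IL1RN at 6.55 RPKM with IL-13 and 10.4 RPKM in control. WNT7A and WNT10A had log2 ratios of −0.68 and −0.63, and FGF2 the highest of the list, 0.56. TSLP, an epithelial cytokine that acts upstream of type 2 responses, was listed at 0 in both libraries. KITLG (stem cell factor, the growth factor of mast cells) was not on that list and was higher, with 18.7 RPKM with IL-13 and 9.21 RPKM in control.

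Of 37 cytokine and growth factor receptors compared, LIFR was the 1 that was higher, and none was lower. This receptor chain for leukemia inhibitory factor was at 7.18 RPKM with IL-13 and 1.59 RPKM in control. Its partner IL6ST (gp130) was at 7.33 RPKM with IL-13 and 5.48 RPKM in control, and OSMR at 17.9 RPKM with IL-13 and 14.3 RPKM in control, both within 1.5-fold. IL6R ran lower, at 4.93 RPKM with IL-13 and 7.91 RPKM in control, and had an adjusted p of 0.0382 in the authors' deposited table. IL1RL1, the receptor of IL-33, was at 1.71 RPKM with IL-13 and 0.899 RPKM in control, a log2 ratio of 0.86 and short of the limit. SECTM1, a transmembrane and secreted ligand of CD7, had one of the larger differences in level, 44.3 RPKM with IL-13 and 9.33 RPKM in control.

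The clade B serpins are intracellular and secreted protease inhibitors encoded in clusters on chromosomes 18 and 6. Of 13 members 10 were compared, 4 were higher and none was lower, with a median log2 ratio of 0.59. Over all genes compared 0.543% were higher and 0.110% lower. SERPINB3 was at 17.8 RPKM with IL-13 and 1.20 RPKM in control, and SERPINB4 at 7.80 RPKM with IL-13 and 0.413 RPKM in control. SERPINB13 was at 26.1 RPKM with IL-13 and 6.64 RPKM in control, and SERPINB10 at 2.33 RPKM with IL-13 and 1.11 RPKM in control, just inside the limit. These 4 lie on chromosome 18 between 61254534 and 61602476 of hg19. The remaining members did not pass: SERPINB2 had 32.3 RPKM with IL-13 and 21.1 RPKM in control, and SERPINB5 (maspin) 112 RPKM with IL-13 and 143 RPKM in control. SERPINB3 and SERPINB4 are near-identical paralogs, so reads may be split between them and their separate values are uncertain. Their promoters show how alike they are: 4 of 300 bases differ, an identity of 98.7%. Both are RefSeq sequence of GRCh38.p14, minus strand, chr18:63661844-63662143 for SERPINB3 and chr18:63644207-63644506 for SERPINB4, with the differing bases in capitals.
SERPINB3: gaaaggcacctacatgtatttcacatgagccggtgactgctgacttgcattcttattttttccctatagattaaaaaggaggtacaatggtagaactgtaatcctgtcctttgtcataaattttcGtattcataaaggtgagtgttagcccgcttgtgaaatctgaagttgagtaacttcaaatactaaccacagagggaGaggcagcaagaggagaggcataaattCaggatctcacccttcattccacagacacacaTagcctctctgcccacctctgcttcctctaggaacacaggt
SERPINB4: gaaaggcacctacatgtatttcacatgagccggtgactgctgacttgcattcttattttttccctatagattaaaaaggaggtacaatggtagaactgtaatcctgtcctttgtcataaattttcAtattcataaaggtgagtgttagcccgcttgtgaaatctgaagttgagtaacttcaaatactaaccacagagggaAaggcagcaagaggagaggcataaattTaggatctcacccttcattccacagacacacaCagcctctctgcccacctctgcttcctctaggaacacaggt

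Enzymes that build or cut surface glycans were among the higher genes. Of 27 hyaluronan and heparan sulfate genes compared, 4 were higher and none lower, with a median of 0.08. Over all genes compared 0.543% were higher. HAS2 and HAS3 make hyaluronan, a long matrix sugar. HAS2 was at 43.0 RPKM with IL-13 and 7.77 RPKM in control, and HAS3 at 89.0 RPKM with IL-13 and 23.4 RPKM in control, while HAS1 was at 0 with IL-13 and 0.0157 RPKM in control. HAS2 overlaps HAS2-AS1 on the other strand and HAS3 overlaps CHTF8. Whether the counting used strand is not given in the sources used here, so reads of these partners cannot be told apart. KIAA1199 (CEMIP), a hyaluronan-degrading protein, was at 10.5 RPKM with IL-13 and 3.74 RPKM in control. CD44, the main hyaluronan receptor, was at 234 RPKM with IL-13 and 145 RPKM in control, under 2-fold, with an adjusted p of 0.00287 in the authors' deposited table. HS3ST1, which adds a 3-O-sulfate to heparan sulfate, was at 13.4 RPKM with IL-13 and 1.92 RPKM in control. The syndecans SDC1 and SDC4 and the glypican GPC1 had log2 ratios of −0.17, −0.24 and −0.33.

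Of 21 mucin-type O-glycan enzymes and mucins compared, 2 were higher, against 0.543% of all genes compared, and both are core 2 branching enzymes. GCNT3 was at 2.87 RPKM with IL-13 and 0.0720 RPKM in control, a log2 ratio of 4.11 against a control value close to 0. GCNT1 was at 10.6 RPKM with IL-13 and 4.17 RPKM in control. ST3GAL2, a sialyltransferase of O-glycans and gangliosides that is not on the list, was at 5.68 RPKM with IL-13 and 1.99 RPKM in control. The membrane mucins MUC1 (2.95 RPKM with IL-13 and 2.51 RPKM in control) and MUC4 (2.73 RPKM with IL-13 and 2.33 RPKM in control) lay within 1.5-fold. The gel-forming mucin MUC2, the goblet cell factor SPDEF and the goblet cell product CLCA1 were at or near 0 in both libraries, with values of at most 0.0339 RPKM.

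Of 25 metalloproteinases, inhibitors and lysyl oxidases compared, 4 were higher and none was lower, against 0.543% and 0.110% of all genes compared. MMP7 (matrilysin) was at 12.2 RPKM with IL-13 and 1.09 RPKM in control, and the proteoglycan-cleaving ADAMTS15 at 7.91 RPKM with IL-13 and 1.65 RPKM in control. The collagen cross-linking enzymes LOXL4 and LOX were at 9.05 RPKM and 1.31 RPKM with IL-13, against 2.19 RPKM and 0.362 RPKM in control. MMP1 and MMP14, the more abundant proteases, were at 115 RPKM and 104 RPKM with IL-13, against 94.2 RPKM and 116 RPKM in control. TIMP3, an inhibitor of these proteases, had the lowest ratio of the list, 6.35 RPKM with IL-13 and 9.41 RPKM in control.

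Among 31 cadherins and junction genes compared, CDH26 alone was higher and none was lower, with a median of −0.08. CDH26, a cadherin of gastrointestinal epithelium, was at 3.63 RPKM with IL-13 and 0.312 RPKM in control, with an adjusted p of 0.408 in the authors' deposited table. Among claudins of tight junctions, none of which passed the limit, CLDN1 was at 8.26 RPKM with IL-13 and 14.2 RPKM in control, and CLDN4 at 103 RPKM with IL-13 and 154 RPKM in control. CLDN3, CLDN7, CLDN12 and CLDN23 had log2 ratios of −0.53, −0.03, 0.09 and 0.25. E-cadherin (CDH1) was at 95.8 RPKM with IL-13 and 104 RPKM in control. The integrin chain ITGB6, which pairs with the alpha v chain to bind latent TGF-beta and tenascin, was at 29.0 RPKM with IL-13 and 14.3 RPKM in control, just inside the limit. Its relative ITGB8 (9.13 RPKM with IL-13 and 4.57 RPKM in control) and the matrix protein tenascin-C, TNC (153 RPKM with IL-13 and 77.2 RPKM in control), lay just outside it.

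Of 27 ion transport genes compared, 3 were higher and none lower, with a median of 0.13. Over all genes compared 0.543% were higher. ANO1 (TMEM16A), a calcium-activated chloride channel, was at 113 RPKM with IL-13 and 31.7 RPKM in control. SGK1, a kinase that raises the activity of several ion channels and exchangers, was at 27.7 RPKM with IL-13 and 8.45 RPKM in control, and the sodium/proton exchanger SLC9A3 (NHE3) at 2.41 RPKM with IL-13 and 1.03 RPKM in control. Carbonic anhydrase 2, CA2, was at 108 RPKM with IL-13 and 63.6 RPKM in control, and the sulfate transporter SLC26A2 at 3.45 RPKM with IL-13 and 1.89 RPKM in control, both short of the limit. The sodium channel subunit SCNN1A ran the other way, 7.03 RPKM with IL-13 and 10.5 RPKM in control. Pendrin (SLC26A4) was at 0.0716 RPKM with IL-13 and 0.0786 RPKM in control. SGK1 and ITGB6 are the 2 higher genes with a promoter that holds TTC and GAA with 4 bases of any kind between them, a spacing bound by STAT6. A gene can have several RefSeq starts, and whether the SGK1 start printed here is used in these cells was not tested. Its window is RefSeq sequence of GRCh38.p14, minus strand, chr6:134318063-134318362, with the match in capitals.
SGK1: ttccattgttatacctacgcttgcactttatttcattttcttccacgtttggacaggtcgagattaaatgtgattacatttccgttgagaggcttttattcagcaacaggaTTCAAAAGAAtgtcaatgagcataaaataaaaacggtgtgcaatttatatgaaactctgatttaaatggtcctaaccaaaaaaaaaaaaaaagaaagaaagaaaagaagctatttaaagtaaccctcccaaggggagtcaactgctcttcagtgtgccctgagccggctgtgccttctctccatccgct

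Higher genes outside the role lists above are given one by one. ALOX15 (15-lipoxygenase) was at 1.10 RPKM with IL-13 and 0.314 RPKM in control, with an adjusted p of 0.141 in the authors' deposited table. With a pseudocount of 1 RPKM, ALOX15 had a log2 ratio of 0.67 and no longer passed. DUOXA1, the maturation factor of the hydrogen peroxide producing oxidase DUOX1, was at 26.0 RPKM with IL-13 and 12.4 RPKM in control. It overlaps DUOXA2 on the other strand. NCF1, a subunit of the phagocyte oxidase with near-identical pseudogenes, was at 1.06 RPKM with IL-13 and 0.394 RPKM in control, and its value is uncertain for that reason. CYP1B1, a cytochrome P450, was at 20.5 RPKM with IL-13 and 10.1 RPKM in control. The transporters SLC39A8 (zinc and manganese) and SLC22A4 (ergothioneine and carnitine) were at 2.27 RPKM and 2.22 RPKM with IL-13, against 1.06 RPKM and 0.834 RPKM in control.

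Of 36 transcription regulators of the early response compared, 7 were higher and none was lower, against 0.543% and 0.110% of all genes compared. The list's median was −0.02. That list was chosen with earlier results of these data known and is no independent evidence of direction. SOX2, a factor of basal esophageal cells, was at 37.7 RPKM with IL-13 and 16.4 RPKM in control; it lies inside SOX2-OT on the same strand. EHF, an epithelial ETS factor, was at 12.5 RPKM with IL-13 and 4.62 RPKM in control. ID3, an inhibitor of helix-loop-helix factors, was at 55.6 RPKM with IL-13 and 25.9 RPKM in control, whereas its relative ID1 had 38.8 RPKM with IL-13 and 56.6 RPKM in control. The homeobox gene MEOX1 was at 3.28 RPKM with IL-13 and 0.560 RPKM in control. ARID5B, BCL11B and RUNX2 were at 6.74, 3.14 and 3.92 RPKM with IL-13, against 2.69, 1.40 and 1.90 RPKM in control. In the authors' deposited table SOX2 and MEOX1 had an adjusted p above 0.05. EHF, ID3, ARID5B, BCL11B and RUNX2 had one below 0.05 there. The corepressor TLE1 (14.4 RPKM with IL-13 and 5.66 RPKM in control) and the HMG-box gene TOX (8.00 RPKM with IL-13 and 3.82 RPKM in control) were higher and not on the list. TP63, the master factor of squamous epithelium, was at 87.6 RPKM with IL-13 and 81.7 RPKM in control.

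**Figure D2:**
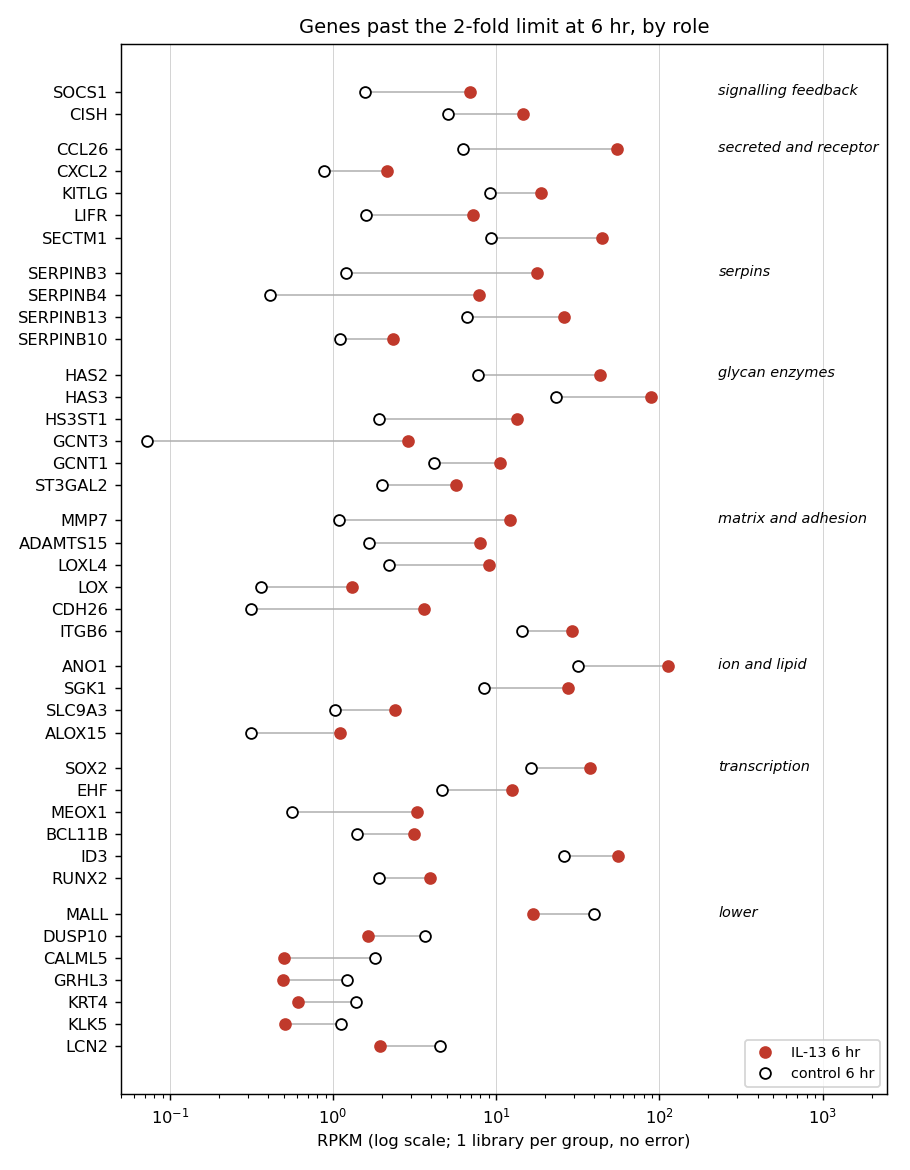
RPKM at 6 hr on a log axis for genes past the 2-fold limit, grouped by role, with filled points for the IL-13 library and open points for the control library; there is 1 library per group and so no error bar. Levels with IL-13 run from 1.10 RPKM for ALOX15 to 113 RPKM for ANO1 among the higher genes drawn, and in the lower group only MALL exceeds 5 RPKM in control.

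The remaining higher genes share no list of roles. UNC5B, a netrin receptor, was at 14.7 RPKM with IL-13 and 5.66 RPKM in control. Its ligand netrin-1, NTN1, was at 14.4 RPKM with IL-13 and 7.38 RPKM in control, short of the limit, with an adjusted p of 2.15e-05 in the authors' deposited table. The Wnt pathway kinase TNIK was at 2.83 RPKM with IL-13 and 0.522 RPKM in control. RGS2, which turns off G protein signalling, had a log2 ratio of 1.03. The actin-binding SYNPO was at 7.04 RPKM with IL-13 and 2.37 RPKM in control. The calcium sensor VSNL1 was at 22.2 RPKM with IL-13 and 10.9 RPKM in control. LURAP1L was at 4.67 RPKM with IL-13 and 0.360 RPKM in control, and FAM115C at 3.37 RPKM with IL-13 and 0.386 RPKM in control. KAL1 (anosmin), the teneurin ODZ2, NLRP10, FAM83F, PRR16, CCDC71L, FNDC3A, DENND4A and MFHAS1 had log2 ratios of 1.02 to 1.88.

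Some gene models share reads with others. PPAN-P2RY11, DYX1C1-CCPG1, PRR5-ARHGAP8 and RAB4B-EGLN2 among the higher genes, and C17orf61-PLSCR3 among the lower, are read-through models that share exons with the single genes they join, so their RPKM depends on how reads were assigned. In all, 7 higher and 2 lower genes overlap another gene on the same strand, against 8.71% of genes compared. HERC2P10 is a pseudogene. LRRC24, lower, was listed at 0 with IL-13 and at 1.03 RPKM in control, and overlaps C8orf82 on the same strand and LRRC14 on the other.

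The lower genes were few and low in level, and 5 of the 13 are squamous differentiation genes. Of 28 such genes compared out of 48, 5 were lower, none was higher and 21 had a log2 ratio below 0. The median was −0.42, against 0.00 over all genes compared. Of all genes compared 0.110% were lower, and 0.645% of those at a mean level of 0.5 to 2 RPKM. The 48 genes summed to 1163 RPKM with IL-13 and 1108 RPKM in control. This list, too, was chosen with earlier results of these data known and is no independent evidence of direction. MALL, a raft protein of the MAL family, was at 16.7 RPKM with IL-13 and 40.0 RPKM in control, and had an adjusted p of 0.000367 in the authors' deposited table. CALML5, a calmodulin-like protein of upper epidermal layers, was at 0.503 RPKM with IL-13 and 1.80 RPKM in control. GRHL3, a transcription factor of barrier formation, was at 0.495 RPKM with IL-13 and 1.21 RPKM in control. The suprabasal esophageal keratin KRT4 was at 0.606 RPKM with IL-13 and 1.38 RPKM in control, and the protease KLK5 at 0.506 RPKM with IL-13 and 1.12 RPKM in control. The authors' deposited table gave adjusted p-values of 0.932 for CALML5, 0.546 for GRHL3 and 1 for KRT4 and KLK5. With a pseudocount of 1 RPKM these 4 no longer passed, at log2 ratios of −0.90, −0.56, −0.57 and −0.50. KRT13, the partner keratin of KRT4, was at 59.4 RPKM with IL-13 and 78.3 RPKM in control. ZNF750 (1.52 RPKM with IL-13 and 3.05 RPKM in control), SPRR2A (0.561 RPKM with IL-13 and 1.19 RPKM in control) and SPRR1B (3.12 RPKM with IL-13 and 6.09 RPKM in control) had log2 ratios of −0.96, −0.96 and −0.94, just short of the limit. Of the wound keratins, none of which passed, KRT6A was at 666 RPKM with IL-13 and 565 RPKM in control and KRT16 at 26.9 RPKM with IL-13 and 22.3 RPKM in control. KRT17 was at 1224 RPKM with IL-13 and 1352 RPKM in control. Terminal genes were at or near 0 in both libraries: LOR and CRNN were listed at 0, IVL was at 0.0256 RPKM with IL-13 and 0.0153 RPKM in control, and FLG at 0.0133 RPKM with IL-13 and 0.0153 RPKM in control. The part of the squamous marker level, 3368 RPKM with IL-13 and 3619 RPKM in control, in these lower values was not tested.

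The other lower genes have mixed roles. DUSP10, a phosphatase of the p38 and JNK kinases, was at 1.63 RPKM with IL-13 and 3.68 RPKM in control, with an adjusted p of 0.0128 in the authors' deposited table. LCN2, an antibacterial iron-siderophore binder, was at 1.95 RPKM with IL-13 and 4.53 RPKM in control. The receptor adaptor GRB7 was at 1.30 RPKM with IL-13 and 2.77 RPKM in control, RGCC at 1.71 RPKM with IL-13 and 4.12 RPKM in control, and PMCH, which overlaps PARPBP on the other strand, at 0.417 RPKM with IL-13 and 1.00 RPKM in control. Just outside the limit was the Wnt inhibitor DKK1, at 58.6 RPKM with IL-13 and 115 RPKM in control. The authors' deposited table gave DKK1 an adjusted p of 0.00766.

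A list of 38 genes known to respond to IL-13 in epithelia had 20 genes compared, 15 higher and none lower, with a median of 1.72. That list was drawn up knowing results of this cell system and is no independent evidence of direction. Its members without a higher level included PIM1 (7.81 RPKM with IL-13 and 10.1 RPKM in control), FOXQ1 (10.7 RPKM with IL-13 and 16.4 RPKM in control) and TGM2 (1.36 RPKM with IL-13 and 1.18 RPKM in control). POSTN and ARG1 were listed at 0 in both libraries, and CAPN14, an esophageal protease, was at 0.170 RPKM with IL-13 and 0.0250 RPKM in control, too low to be compared. Of 41 interferon-stimulated genes, none passed and the median was 0.03, with IRF1 the highest at 17.3 RPKM with IL-13 and 9.14 RPKM in control. None of 45 cell cycle genes passed (median −0.03), nor of 32 cholesterol and fatty acid synthesis genes (median −0.03) or 18 housekeeping genes (median 0.00). The NF-kB list of 23 held 1 higher (CXCL2) and 1 lower (LCN2) gene with a median of 0.05. Growth factor immediate early genes, 31 compared, had DUSP10 as the 1 lower gene, 22 log2 ratios below 0 and a median of −0.15; EGR3 was at 1.19 RPKM with IL-13 and 2.29 RPKM in control. The TGF-beta and matricellular list of 29 had ID3 as the 1 higher gene, and a median of −0.14. The 23 hemidesmosome and basal squamous genes had SOX2 as the 1 higher gene and a median of −0.14, and the 12 antimicrobial and antiprotease genes had LCN2 as the 1 lower gene and a median of −0.17.

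**Figure D3:**
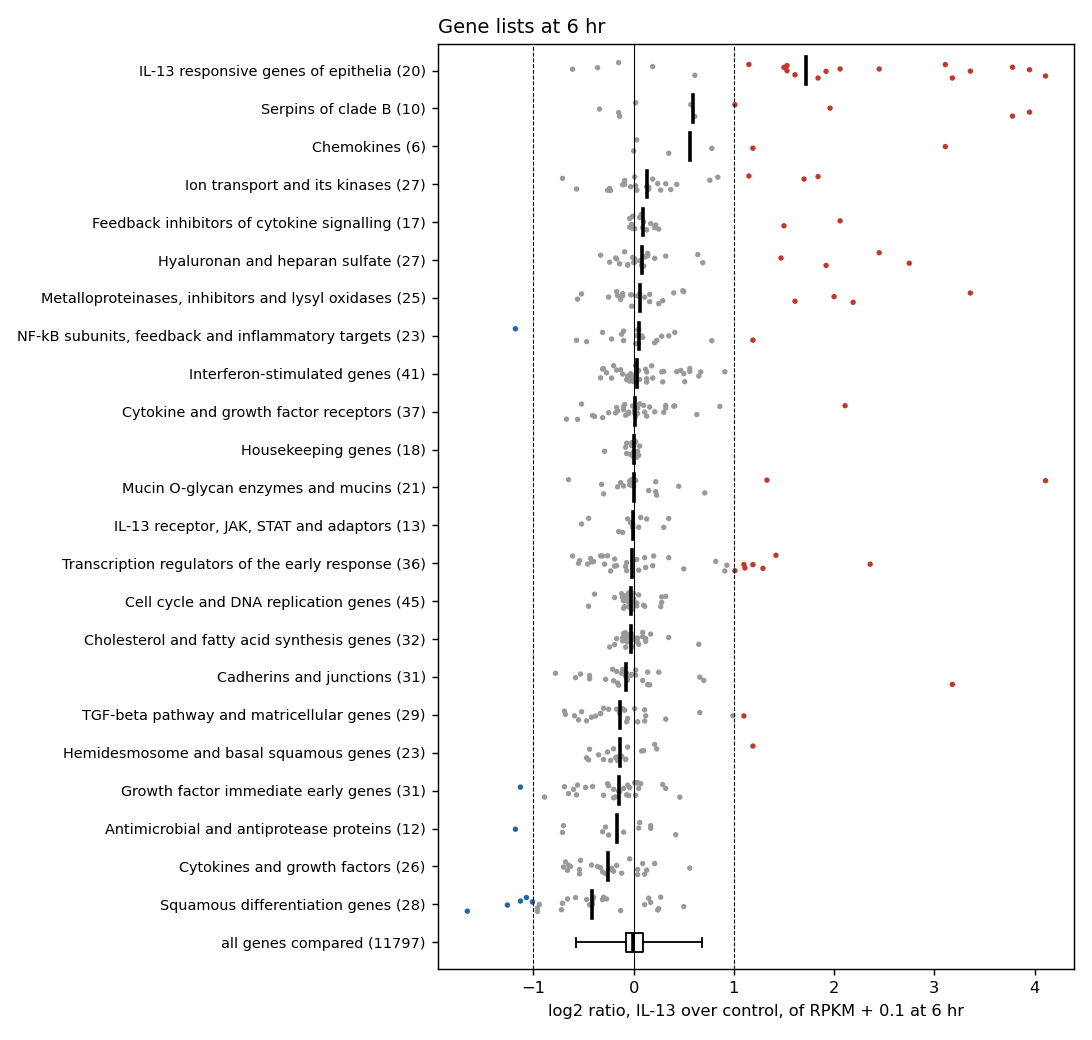
Log2 ratio at 6 hr, IL-13 over control, of each gene compared in 23 lists (number compared in brackets, 1 gene not drawn), ordered by the median, which is the black bar; red points are at least 2-fold higher and blue points at least 2-fold lower with IL-13. The bottom row shows all 11797 genes as a box of the quartiles with whiskers from the 1st to the 99th percentile; squamous differentiation genes have the lowest median, −0.42.

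In absolute terms the largest gains were in abundant genes that did not reach 2-fold. TXN (thioredoxin) was at 542 RPKM with IL-13 and 389 RPKM in control, a difference of 153 RPKM. KRT8 had 726 RPKM with IL-13 and 591 RPKM in control, and the matrix protein THBS1 309 RPKM with IL-13 and 196 RPKM in control. On the other side, YWHAZ was at 1021 RPKM with IL-13 and 1247 RPKM in control, and KRT5 at 1528 RPKM with IL-13 and 1729 RPKM in control. KRT7 had 416 RPKM with IL-13 and 559 RPKM in control. ANO1 and no other gene past the limit was among the 10 largest gains. The summed RPKM was 466103 with IL-13 and 469881 in control.

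The authors' deposited table carries an adjusted p for this comparison. Below 0.05 were 75 of the genes compared, 68 higher (0.576%) and 7 lower (0.0593%). By that value, 39 of the 64 higher and 3 of the 13 lower genes passed, and 33 more genes passed without reaching 2-fold. Among these were MAP3K14 (NIK), a kinase of the alternative NF-kB pathway, at 12.9 RPKM with IL-13 and 6.60 RPKM in control, with an adjusted p of 8.03e-05 in the authors' deposited table. TNS4, a focal adhesion protein, was at 48.8 RPKM with IL-13 and 27.2 RPKM in control, and KLF6 at 12.3 RPKM with IL-13 and 6.93 RPKM in control. MECOM, a zinc finger factor, was at 6.54 RPKM with IL-13 and 3.22 RPKM in control, and stood just outside the 2-fold limit. Other genes past the 2-fold limit had an adjusted p above 0.05. In the authors' deposited table it was 0.102 for SERPINB13, 0.12 for SGK1, 0.229 for GRB7, 0.312 for UNC5B and 0.515 for KIAA1199. CXCL2 and SERPINB10 also lay above 0.05. How the authors estimated the spread behind these p-values is not given in the sources used here.

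The 2 hr and 24 hr libraries place these genes in time. The 24 hr libraries share no reads with those of 6 hr. The 2 hr control shares reads with the 6 hr control, so the 2 hr ratios below are not separate from the choice of genes. At 24 hr, 59 of the 64 higher genes were compared, 20 were at least 2-fold higher (0.549% of the 12389 genes compared at 24 hr were) and none was lower, and 57 of the 64 had a log2 ratio above 0. Their median log2 ratio was 1.07 at 2 hr, 1.39 at 6 hr and 0.70 at 24 hr; being chosen at 6 hr favours that time. In 5 of the 64, the ratio was larger at 24 hr than at 6 hr. CDH26 had log2 ratios of 1.51, 3.18 and 5.14 at 2, 6 and 24 hr, CCL26 of 2.08, 3.11 and 4.88, and ALOX15 of 0.78, 1.53 and 2.79. CCL26 reached 166 RPKM with IL-13 at 24 hr, against 5.51 RPKM in control. SGK1 had 1.14, 1.70 and 2.13 in the same order.

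Most of the higher genes, 59, had a log2 ratio of smaller size at 24 hr than at 6 hr, against 5 with a larger one. FAM115C had log2 ratios of 2.60, 2.83 and −0.31 at 2, 6 and 24 hr, and ID3 had 1.55, 1.10 and −0.61. The control level of ID3 was 25.9 RPKM at 6 hr and 89.1 RPKM at 24 hr. HAS3, with 2.49, 1.92 and 1.40, and SOCS1, with 2.19, 2.06 and 1.13, were past the limit at all 3 times. TNIK was past the limit at 6 hr alone, at 2.24, with −0.00 at 2 hr and 0.36 at 24 hr. SECTM1 had 1.44, 2.24 and 0.36, where the 24 hr levels were 49.4 RPKM with IL-13 and 38.4 RPKM in control. Of the 13 lower genes, 12 were compared at 24 hr, 3 were at least 2-fold lower (1.02% of the genes compared at 24 hr were) and none was higher. These were MALL (6.41 RPKM with IL-13 and 24.1 RPKM in control at 24 hr), CALML5 (1.22 RPKM and 8.25 RPKM in the same order) and PMCH (0.218 RPKM and 2.14 RPKM). The median log2 ratios of the 13 genes were −0.37 at 2 hr, −1.18 at 6 hr and −0.68 at 24 hr. In the squamous differentiation list, 5 of 28 genes were lower at 6 hr and 11 of 31 at 24 hr; KRT1 was at 1.13 RPKM with IL-13 and 1.85 RPKM in control at 6 hr, and at 27.8 RPKM with IL-13 and 109 RPKM in control at 24 hr.

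**Figure D4:**
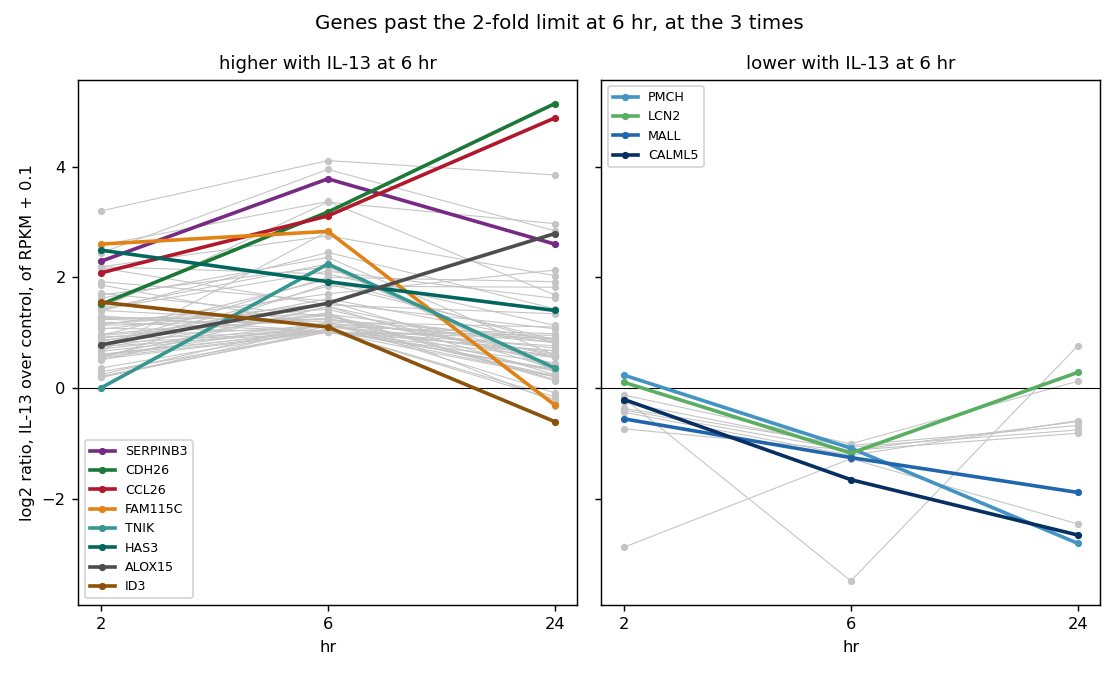
Log2 ratio of RPKM + 0.1, IL-13 over control, at 2, 6 and 24 hr, for 63 genes higher with IL-13 at 6 hr on the left and 12 lower genes on the right, with some genes coloured by name; each point is 1 library per group. CDH26, CCL26 and ALOX15 climb to 24 hr, while FAM115C and ID3 end below 0.

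Histone marks at the starts of these genes were measured at 6 hr and did not enter the choice of genes. H3K27Ac marks active promoters and enhancers, and H3K9Ac and H3K4me3 mark active promoters. The authors' deposited table gives M for each peak, the log2 of library 1 over library 2, without naming which library is IL-13, so no direction of treatment is assigned. For each gene the peak with the highest mean level was taken. Of the 64 higher genes, 58 had an H3K27Ac peak, with a median M of −0.57 in the authors' deposited table, against 0.08 over 11059 genes compared that had one. In the authors' deposited table M was −1 or less at 18 of the 58 (31.0%), against 1.63% of genes compared, and 1 or more at none of them, against 3.07%. Among the higher genes named here, the most negative values in the authors' deposited table were those of GCNT3 (−4.03), SERPINB4 (−3.25), FAM115C (−3.20) and SERPINB3 (−2.97). Some of these rest on weak peaks: the mean level A in the authors' deposited table was 2.99 for GCNT3, 1.57 for FAM115C and 3.65 for SERPINB3, and 5.08 for SERPINB4. With peaks of A 5 or more alone, M was −1 or less at 10 of 45 higher genes (22.2%) in the authors' deposited table, against 0.801% of 10363 genes compared. MMP7 (−2.32), CDH26 (−2.30), CCL26 (−2.07) and SOCS1 (−1.98) followed in the authors' deposited table. HAS2, at −0.16 in the authors' deposited table, differed little in H3K27Ac while its RNA differed 5.54-fold, and EHF was at 0.57.

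Over the higher genes, the other marks leaned the same way with smaller shares. For H3K9Ac the median M in the authors' deposited table was −0.37 over 51 higher genes, against 0.08 over 11005 genes compared, and M was −1 or less at 7 of them (13.7%), against 1.74%, and 1 or more at 1, against 2.31%. For H3K4me3 the median M in the authors' deposited table was −0.20 over 43 higher genes, against 0.08 over 10736, and M was −1 or less at 7 (16.3%), against 4.05%, and 1 or more at 1, against 5.05%. EHF stood apart for H3K9Ac with an M of 3.41 at an A of 1.71 in the authors' deposited table. CCL26 had H3K27Ac peaks at both of its annotated starts: M was −2.07 and −2.72 at the inner start and 0.04 and −0.38 at the outer start in the authors' deposited table. Of the 13 lower genes, 9 had an H3K27Ac peak, with a median M of 0.07 in the authors' deposited table. DUSP10 (1.72) and MALL (1.00) had values of 1 or more in the authors' deposited table, and GRB7 (−3.67) and KLK5 (−1.43) of −1 or less. The latter 2 rest on weak peaks: A in the authors' deposited table was 2.81 for GRB7 and 3.29 for KLK5. It was 6.35 for DUSP10 and 7.17 for MALL.

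**Figure D5:**
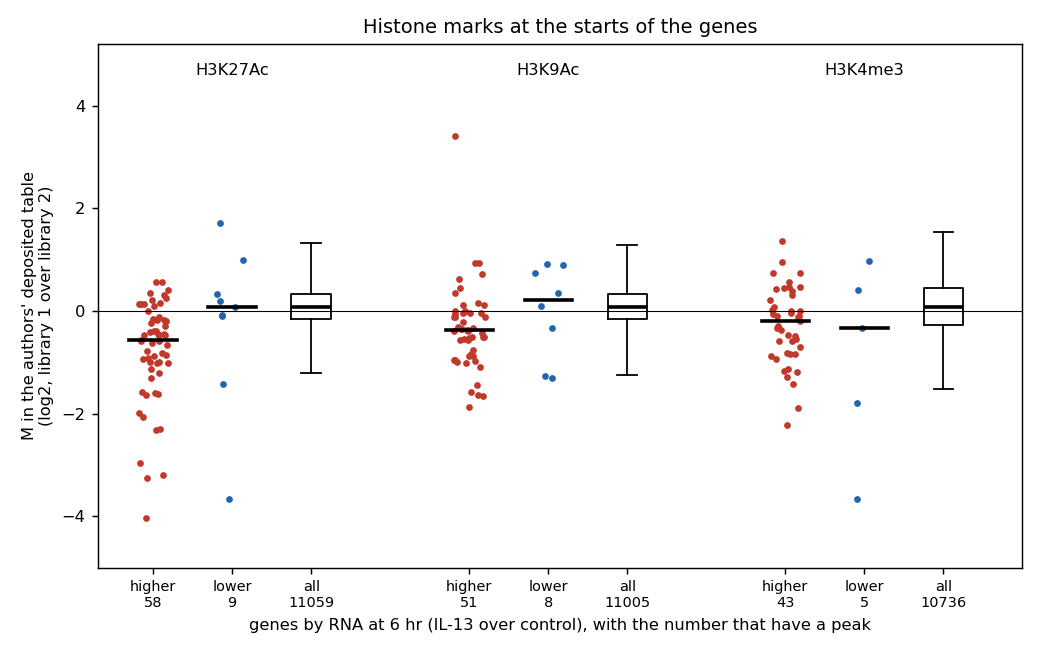
M (log2 of library 1 over library 2, from the authors' deposited table) of H3K27Ac, H3K9Ac and H3K4me3 at gene starts, for genes higher and lower with IL-13 at 6 hr (points, with the median as a bar) and for all genes compared (box of the quartiles, whiskers from the 1st to the 99th percentile). For H3K27Ac the 58 higher genes have a median of −0.57 and none reaches 1, beside a median of 0.08 over all genes.

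Promoters of 300 bases, 250 before to 50 after each RefSeq start, were searched for TTC and GAA with 4 bases of any kind between them (the 4-base spacing) and for TTCNNNGAA. Both read the same on either strand, and they were counted separately. A gene counted if any of its starts held the letters, while the share of all promoters counts each promoter, so these 2 shares differ in unit. Of the 64 higher genes 48 matched a promoter by symbol, and of the 13 lower genes 10 did. The 4-base spacing stood in 2 of the 48 (4.17%), SGK1 and ITGB6, and in 0 of the 10, against 6.46% of 9297 genes compared and 6.44% of all 35116 promoters in the table. TTCNNNGAA stood in 8 of the 48 (16.7%), against 8.28% of genes compared and 7.66% of all promoters. These 8 are CISH, LIFR, CDH26, EHF, ID3, ARID5B, CCDC71L and PRR16. Among the 10 lower genes PMCH held it. A match is a description of letters in this window and no match says only that the letters are not there.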

How the data were processed

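RNA-seq at 2, 6 and 24 hr and ChIP-seq of H3K4me3, H3K9Ac and H3K27Ac at 6 hr were deposited as tables on hg19 (GRCh37). Per the submitters' processing notes, RNA reads were aligned with TopHat2 2.0.9 and compared with DESeq, and ChIP reads were aligned with Bowtie 1.0.0 and peaks called with MACS2 2.0.10.20130712. The authors deposited RPKM per gene and library, a log2 ratio, and p-values per time. For ChIP, per the file headers, the deposited tables hold normalized log2 values M (library 1 over library 2) and A, and −log10 p-values, which were not used. 6 columns of raw ChIP reads were also not used, since the headers do not say which library is which. RPKM is not a count and each group has 1 library, so no test was made. The log2 ratio of RPKM + 0.1 (IL-13 over control) was computed with Python 3.11.15, pandas 2.3.3 and NumPy 2.4.6, over genes of at least 1 RPKM in either library and 300 bp in span, with a 2-fold limit. Depth was read from the steps of low RPKM values with a tolerance of 0.5%: 93.9% of 297 low values with IL-13 and 92.7% of 300 in control fell on steps. Poisson intervals came from SciPy 1.17.1. The size rule was tested on simulated data. Genes named are those past the limit, members of the lists, the 5 nearest the limit on each side, the 10 largest and 10 smallest differences in RPKM, and the 10 smallest p-values of the authors' deposited table among genes under 2-fold. Genes, lists and rules were chosen with earlier results of these data known. 3 genes that these rules name are counted but not reported here. Promoters were matched by symbol to RefSeq GRCh38.p14 sequence, and no hg19 coordinate was converted. Other pseudocounts, minimum levels, spans, limits and scalings were tried.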

Additional observations from a re-analysis of the deposited data

How the results depend on the processing

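No paired analysis was possible because each group has 1 library, and for the same reason no library could be left out; neither spread nor error is known. With a pseudocount of 1 RPKM the count was 38 higher and 2 lower, and 36 named genes dropped under 2-fold. ALOX15, LOX, SLC9A3, BCL11B and RUNX2 were among the higher genes that did so. With a pseudocount of 0.01 RPKM the count was 66 higher and 16 lower. A minimum of 0.5 RPKM gave 87 higher and 27 lower, a minimum of 2 RPKM 57 higher and 7 lower, and no minimum 171 higher and 104 lower of 21910. With no minimum span there were 90 higher and 38 lower genes of 11958. A limit of 1.5-fold gave 172 higher and 111 lower, and 82 called list genes against 39; a limit of 3-fold gave 25 higher, 2 lower and 19 list genes. By the adjusted p in the authors' deposited table, 68 were higher and 7 lower. Centring and upper quartile scaling gave 65 higher and 13 lower, and moved the median log2 ratio by at most 0.007. No gene named reversed under these settings. Chosen after seeing the data: peaks with A of at least 5 left 10 of 45 higher genes (22.2%) with M of −1 or less for H3K27Ac in the authors' deposited table, against 0.801% of genes compared, and the first RefSeq start alone left 6 motif matches against 10. Without genes that overlap on the same strand, 57 were higher and 11 lower. Low levels limit the lower genes most: 12 of 13 were below 5 RPKM in control. Causes of these shifts were not tested.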
